A study of Rattus norvegicus with 12 samples.

Results

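Cadherins and protocadherins were examined in clones of INS1E, a rat insulin-secreting beta-cell line. The members were all gene-level measurements whose single gene symbol is Cdh followed by a number or begins with Pcdh, which gave 52 of the 18166 genes measured. By known family structure they comprised 5 type I classical cadherins, 12 type II classical cadherins, 5 other cadherins, 11 non-clustered protocadherins and 19 beta protocadherins of the clustered locus. Each symbol had 1 gene-level measurement, so no choice between brighter and dimmer ones was needed.

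The control was an INS1E clone carrying the empty vector pcDNA3, the second clone expressed human islet amyloid polypeptide (hIAPP) and the third the rat form (rIAPP), all by stable transfection. Human IAPP forms amyloid and the rat peptide does not. All 3 clones grew at 11.1 mM glucose in medium containing geneticin and were collected after 3 days of culture, with no further treatment. Total RNA of each clone was measured on 2 Affymetrix rat gene arrays, lettered a and b, 6 in all. Each transgene was represented by 1 clone, so effects of the clone and of its transgene cannot be told apart. The sources used here do not say whether the lettered samples came from separate cultures. All p-values therefore measure the spread between arrays of a clone, which may be technical.

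Values are log2 signals after RMA, a method that corrects background, normalises arrays by quantiles and summarises probes. Differences are between means of 2 arrays on the log2 scale, with the standard error (SE) of a limma fit over all 18166 genes, and a gene counted as called when its p, adjusted over all of them by Benjamini-Hochberg, was under 0.05. Arrays of a clone correlated across genes at r of 0.999, and arrays of different clones at 0.993 to 0.996. The median gene mean was 8.45 and the lower quartile of an array lay between 6.09 and 6.13. No measure of background was used, so folds are ratios of signals, and whether low signals, such as those of Cdh6 in control and Cdh7 in control and hIAPP, lay above background was not assessed. Under the median in every clone were none of 9 measured beta-cell markers, but 6 of 7 fibroblast, 3 of 3 endothelial, 2 of 2 Schwann-cell and 6 of 6 acinar and ductal markers. Of 5 measured alpha, delta and PP-cell markers, 4 were under it too. The exception, Gcg, had high mean signals of 13.94 in control, 14.11 in hIAPP and 13.93 in rIAPP. It was called higher in hIAPP, by 0.17 over control and by 0.18 over rIAPP. The summed log2 level of the fibroblast list ranged over the clones from 52.4 to 53.3 and that of the beta-cell list from 108.7 to 109.3. Single beta-cell markers differed in both directions: 3 were higher and 3 lower in hIAPP than control, and 2 and 2 in rIAPP. Called were thus 66.7% and 44.4% of the measured list, beside 19.1% and 16% of all genes. Ins1 and Ins2, the insulin genes, fell by 0.57 and 0.74 in hIAPP and by 0.51 and 0.64 in rIAPP, Nkx6-1 fell by 0.42 in hIAPP, and Ucn3 rose there by 1.41 from a control signal under the median. The part of these changes in the cadherin results was not tested. The Iapp signal, 13.7 to 13.9 on all 6 arrays, was not called in either comparison with control (0.06 and 0.17, limma adjusted p of 0.406 and 0.0507), so it does not check the clones' labels.

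Classical cadherins are calcium-dependent adhesion proteins that bind the same or a similar cadherin on the neighbouring cell and connect to actin through catenins. E-cadherin and N-cadherin hold islet endocrine cells together. Protocadherins have more extracellular cadherin repeats and no classical catenin-binding tail. Most are best known from neurons, where the alpha, beta and gamma clusters give each cell its own combination of surface isoforms, each chosen by activation of its own promoter. In mouse and human, the promoters of most clustered isoforms share a conserved element with a CGCT core and are bound by CTCF. Each beta protocadherin is encoded by a single large exon, whereas alpha and gamma isoforms splice a variable first exon to shared constant exons.

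The rat beta promoters are shown because the beta genes lie side by side and gave 22 of the 44 member calls against control. A gene called in both clones counts once per clone there. Whether the rat word described below is the element known from mouse and human was not tested. RefSeq promoter sequences on the GRCr8 build, covering 250 bases before to 50 bases after each gene's start, were matched for 36 of 52 members by gene ID, 14 of them beta protocadherins. The 10-base word present in most beta promoters was sought on the forward strand, and GGTGGCGCTG, which contains CGCT, was in 13 of 14. It began 46 to 229 bases before the start, once in each. It was in 0 of the 22 other member promoters, in 0 of 15 gamma promoters and in 74 of 33469 promoters (0.221%) on either strand, its reverse complement being CAGCGCCACC. The word was picked from the beta promoters themselves, so its count there is a description and no test. The windows below, without those of Pcdhb3, Pcdhb9 and Pcdhb21, lie on the forward strand of chromosome 18, 5′ to 3′. They have 15 bases to each side, with the shared word in capitals. For example, the Pcdhb12 window is chr18:29413643-29413682 and the Pcdhb4 window chr18:29292206-29292245.
Pcdhb12: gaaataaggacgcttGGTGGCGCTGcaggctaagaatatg
Pcdhb4: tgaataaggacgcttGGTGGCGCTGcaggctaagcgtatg
Pcdhb14: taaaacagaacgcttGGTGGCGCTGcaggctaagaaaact
Pcdhb5: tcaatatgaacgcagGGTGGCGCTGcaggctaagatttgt
Pcdhb7: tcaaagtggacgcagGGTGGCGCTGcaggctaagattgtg
Pcdhb6: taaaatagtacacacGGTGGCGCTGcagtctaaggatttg
Pcdhb8: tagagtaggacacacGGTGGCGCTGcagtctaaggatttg
Pcdhb2: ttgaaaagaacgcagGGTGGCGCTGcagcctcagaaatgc
Pcdhb19: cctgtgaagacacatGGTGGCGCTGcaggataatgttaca
Pcdhb20: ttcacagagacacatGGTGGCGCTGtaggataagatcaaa
Genes with the word included those called in both clones against control (Pcdhb5, Pcdhb6, Pcdhb7), in one of them (Pcdhb4, Pcdhb2) and in neither (Pcdhb8). Pcdhb1, the only matched beta promoter without it, was not called in any comparison. Pcdhb13, Pcdhb15 and Pcdhb17, which were called, had no matched promoter sequence. A relation between the word and the calls was therefore not assessed.

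In the hIAPP clone 8 members were higher and 16 lower than control, 46.2% of the 52, where 19.1% of all genes were called (10.1% higher and 8.93% lower). In the rIAPP clone 5 were higher and 15 lower than control, 38.5%, where 16% of all genes were called (8.7% higher and 7.3% lower). Between the transgenic clones 11 members were higher and 7 lower in hIAPP than in rIAPP, 34.6%, against 11.7% of all genes (6.11% higher and 5.56% lower). The median member difference was -0.08 in hIAPP and -0.07 in rIAPP against control, beside -0.01 and -0.002 over all genes. The median absolute difference was 0.17 and 0.12, beside 0.09 over all genes in each comparison. Arrays of the 2 clones compared did not overlap for 37, 38 and 38 members in the 3 comparisons. Over all 18166 genes this held for 10498, 10989 and 9613, so with 2 arrays per clone a lack of overlap is common. Because RNA was taken in bulk, fewer cells expressing a gene and less RNA per cell cannot be told apart.

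Called members numbered 30 over the 3 comparisons, and 6 were called in all 3. The matching shares over all genes were not computed, so these counts only describe the members. Against control, Cdh6, Cdh23 and Pcdh9 were higher in both transgenic clones. Lower in both were Cdh2, Cdh11 and the beta genes Pcdhb5, Pcdhb6, Pcdhb7, Pcdhb9, Pcdhb13 and Pcdhb17. The comparisons share the control arrays, so these calls are not independent of each other. Cdh7 and Pcdhb12 were lower in hIAPP and higher in rIAPP, and Pcdh7 was higher in hIAPP and lower in rIAPP. Of the 52, 25 lay under the median of all genes in every clone.

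**Figure D1:**
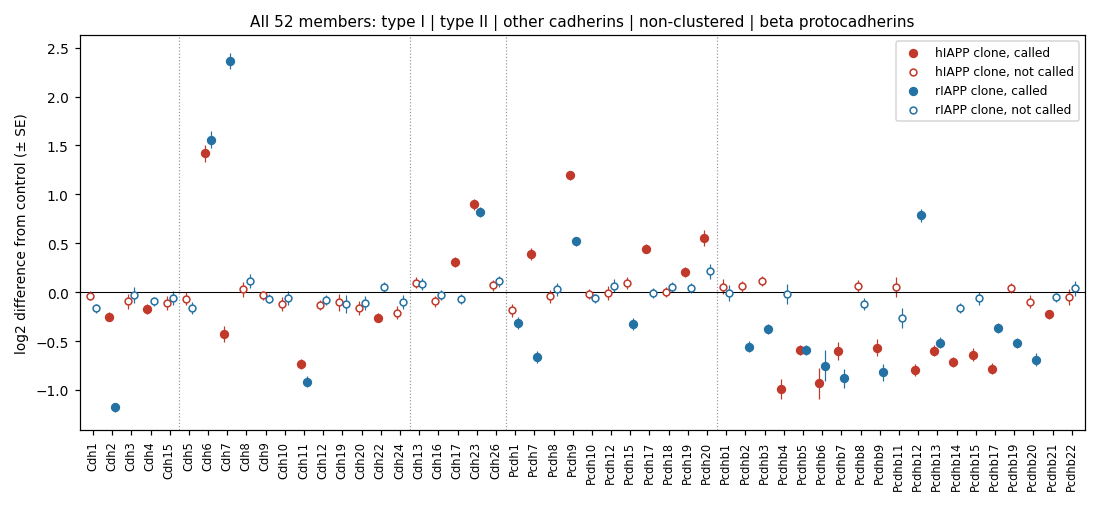
Log2 difference from control (y axis, ± SE) of all 52 members (x axis, by subfamily) in the hIAPP clone (red) and the rIAPP clone (blue), filled where called. Cdh7 at 2.37 in rIAPP and Cdh6 at 1.42 and 1.56 are the highest points, and filled points of the beta protocadherins at the right lie below 0 except Pcdhb12 in rIAPP.

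Type I classical cadherins were led by N-cadherin. Cdh1, encoding E-cadherin, gave 11.81 and 11.79 in control, 11.73 and 11.80 in hIAPP and 11.64 and 11.64 in rIAPP. It was not called, with differences of -0.04 ± 0.05 (SE, n = 2 arrays per clone) in hIAPP and -0.17 ± 0.05 in rIAPP (limma adjusted p of 0.677 and 0.0581). The rIAPP difference passed the threshold with a variance prior that follows the mean level (adjusted p 0.00535), among genes at or above the median only (0.013) and with arrays centred on their median (0.0487). The rIAPP arrays lay below all others, and all 17 of its exon-level probe sets were negative there, none called.

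Cdh2, encoding N-cadherin, gave 11.47 and 11.46 in control, 11.23 and 11.19 in hIAPP and 10.28 and 10.30 in rIAPP. The rIAPP arrays were the lowest and no clones overlapped. Cdh2 was 2.26-fold lower in rIAPP than in control (-1.18 ± 0.05, adjusted p 1.12e-05) and 1.90-fold higher in hIAPP than in rIAPP (0.92 ± 0.05, adjusted p 3.84e-05). In hIAPP it fell by 0.25 (± 0.05, adjusted p 0.00864), which was not called without control array a (-0.25, adjusted p 0.0548).

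Cdh4, encoding R-cadherin of retina and brain, fell by 0.18 in hIAPP (adjusted p 0.047). Its difference from control in rIAPP was -0.09 and that between the transgenic clones -0.08, neither called. Cdh3 (P-cadherin) and Cdh15 (M-cadherin of muscle) were not called.

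Among type II cadherins, Cdh7 had the largest difference of any member. Cadherin-7 is known from neural crest and the developing nervous system. Its signal was 7.26 and 7.30 in control, 6.86 and 6.85 in hIAPP, and 9.52 and 9.77 in rIAPP. The rIAPP arrays stood above the median of all genes and the other 4 below it. Cdh7 was 5.15-fold higher in rIAPP than in control (2.37 ± 0.08, adjusted p 6.32e-06) and 6.92-fold lower in hIAPP than in rIAPP (-2.79 ± 0.08, adjusted p 3.5e-06). The hIAPP difference from control was -0.43 ± 0.08 (adjusted p 0.00925). That call was lost without control array b, hIAPP array a or hIAPP array b (adjusted p 0.0518, 0.0505 and 0.0514). The 20 measured genes nearest to Cdh7 on chromosome 13 had a median of -0.19 in hIAPP minus control, and subtracting it left -0.24. Their part in the hIAPP result was not tested.

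Cdh6, encoding K-cadherin of the kidney and developing brain, gave 6.71 and 6.83 in control, 8.08 and 8.31 in hIAPP and 8.38 and 8.28 in rIAPP. All 4 transgenic arrays lay above control, and hIAPP and rIAPP overlapped. The rise was 2.68-fold in hIAPP (1.42 ± 0.09, adjusted p 4.95e-05) and 2.95-fold in rIAPP (1.56 ± 0.09, adjusted p 4.21e-05), and the transgenic clones were not called against each other (-0.14 ± 0.09, adjusted p 0.389).

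Cdh11, encoding the mesenchymal OB-cadherin, gave 8.94 and 8.98 in control, 8.26 and 8.18 in hIAPP and 8.07 and 8.02 in rIAPP. Control was highest and no clones overlapped. It was 1.66-fold lower in hIAPP (-0.73 ± 0.05, adjusted p 0.000104) and 1.88-fold lower in rIAPP (-0.91 ± 0.05, adjusted p 4.82e-05). The fibroblast marker Thy1 was also lower, by 0.46 and 0.69 in the order hIAPP and rIAPP, the only 1 of 7 fibroblast markers called. Its part in the Cdh11 result was not tested.

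Cdh22, a brain and pituitary cadherin, fell by 0.26 in hIAPP (adjusted p 0.00913) and was also lower there than in rIAPP (-0.31, adjusted p 0.00661). Its difference in rIAPP was 0.05 from control. With Cdh1 and Cdh2 it had the highest control signals of the family, although signals of different probes do not rank RNA amounts. The other 8 type II members, among them endothelial Cdh5, were not called in any comparison.

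**Figure D2:**
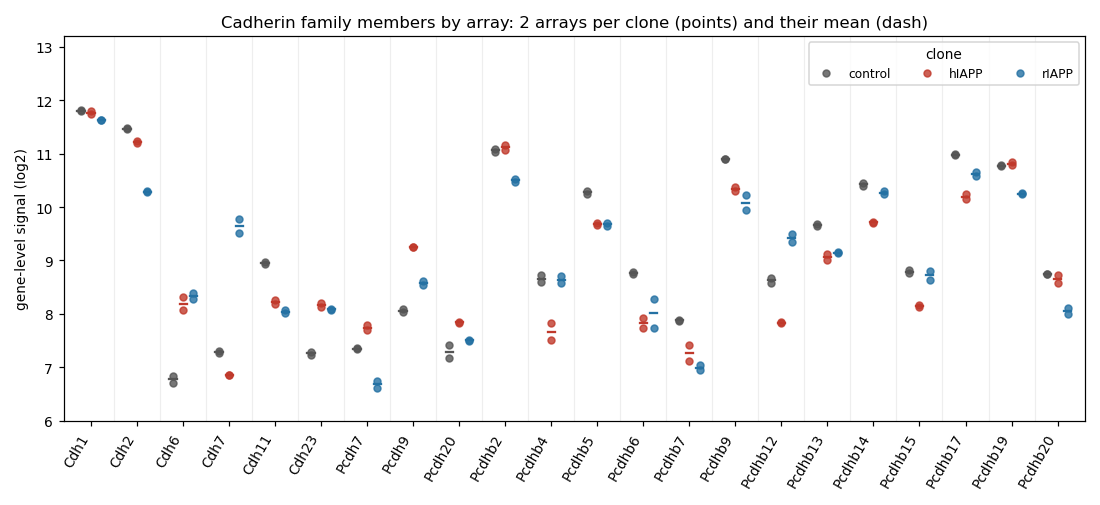
Gene-level log2 signal (y axis) of 22 members (x axis) on each of 2 arrays per clone (points), with the clone's mean (dash) for control (grey), hIAPP (red) and rIAPP (blue). Cdh7 in rIAPP, at 9.52 and 9.77, and Cdh2 in rIAPP, at 10.28 and 10.30, stand apart from the other 4 arrays.

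Of the other cadherins, Cdh23 and Cdh17 were called. Cdh23 forms the tip links of inner-ear hair cells with protocadherin-15. It gave 7.23 and 7.29 in control, 8.12 and 8.20 in hIAPP and 8.07 and 8.09 in rIAPP. The transgenic clones lay above control, by 1.86-fold in hIAPP (0.90 ± 0.05, adjusted p 4.06e-05) and 1.77-fold in rIAPP (0.82 ± 0.05, adjusted p 8.34e-05). Their difference from each other was 0.08 (adjusted p 0.435). Cdh17, the liver-intestine cadherin, was higher in hIAPP than in control by 0.31 (adjusted p 0.00624) and than in rIAPP by 0.38 (adjusted p 0.00427). Its mean signal was low, at 6.07 in control and 6.38 in hIAPP. Cdh13, Cdh16 and Cdh26 were not called.

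Non-clustered protocadherins were called higher in hIAPP, 5 of 11 against control and 5 of 11 against rIAPP, with none lower in either. These are 45.5% in each comparison, beside 19.1% and 11.7% of all genes. In rIAPP 1 was higher and 3 lower than control, 36.4% beside 16% of all genes. Pcdh9 gave 8.03 and 8.08 in control, 9.25 and 9.26 in hIAPP and 8.61 and 8.55 in rIAPP. No clones overlapped. It rose 2.29-fold in hIAPP (1.19 ± 0.05, adjusted p 9.72e-06) and 1.43-fold in rIAPP (0.52 ± 0.05, adjusted p 0.000602). At exon level all 5 probe sets were positive in hIAPP, with a median difference of 0.61, and 2 of 5 in rIAPP, with a median of -0.05. In each clone the same probe set was the 1 called, at 2.11 in hIAPP and 1.40 in rIAPP. The other 4 lay between 0.03 and 0.96 in hIAPP and between -0.40 and 0.35 in rIAPP. With each array's median over the probe sets in place of the gene-level value, Pcdh9 was 0.31 in hIAPP and -0.03 in rIAPP against control, neither called (adjusted p 0.231 and 0.922).

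Pcdh7, like Pcdh9 and Pcdh1 a delta-1 protocadherin, gave 7.36 and 7.33 in control, 7.69 and 7.79 in hIAPP and 6.75 and 6.62 in rIAPP. The hIAPP arrays were highest and the rIAPP arrays lowest, without overlap. The difference was 0.39 ± 0.06 in hIAPP (adjusted p 0.00421), -0.66 ± 0.06 in rIAPP (adjusted p 0.000496) and 1.06 ± 0.06 between them, 2.08-fold (adjusted p 7.2e-05).

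Pcdh20 gave 7.41 and 7.17 in control, 7.85 and 7.84 in hIAPP and 7.49 and 7.51 in rIAPP. Its hIAPP arrays were the highest. It rose by 0.55 ± 0.08 in hIAPP over control (adjusted p 0.00288). The excess over rIAPP, 0.34 ± 0.08 (adjusted p 0.033), was not called without any 1 of the 4 hIAPP and rIAPP arrays (adjusted p 0.123 to 0.156). At exon level 2 of its 4 probe sets were positive in hIAPP.

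Pcdh17 and Pcdh19, both delta-2 protocadherins of the nervous system, were higher in hIAPP than control by 0.45 (adjusted p 0.000833) and 0.20 (adjusted p 0.0352). Pcdh17 was also higher than in rIAPP by 0.45, whereas Pcdh19 was not called there. Pcdh15, the tip-link partner of Cdh23, fell by 0.33 in rIAPP (adjusted p 0.0103) and was higher in hIAPP than in rIAPP by 0.42. Pcdh1 fell by 0.32 in rIAPP (adjusted p 0.015), with a difference of -0.19 in hIAPP that was not called (adjusted p 0.0827). Pcdh8, Pcdh10, Pcdh12 and Pcdh18 were not called.

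The beta protocadherins were lower for 11 of 19 genes in hIAPP and none was higher, with a median of -0.57. In rIAPP 10 were lower and 1 higher, with a median of -0.37. Called against control were thus 57.9% of the 19 in each clone, beside 19.1% and 16% of all genes. The genes differed between the clones: 4 were higher and 5 lower in hIAPP than in rIAPP, 47.4% beside 11.7% of all genes. In hIAPP, 10 of the 11 falls were of at least 0.5. For 13 of the 19 the exon level holds 1 probe set with the same values, so it is no separate check there. The files hold no probe sequences, so sharing of probes among these closely related genes was not measured and single-gene values are uncertain to that extent.

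Pcdhb12 gave 8.68 and 8.59 in control, 7.85 and 7.82 in hIAPP and 9.34 and 9.49 in rIAPP. No clones overlapped. It was 1.74-fold lower in hIAPP (-0.80 ± 0.06, adjusted p 0.000205), 1.72-fold higher in rIAPP (0.79 ± 0.06, adjusted p 0.000277), and 2.99-fold lower in hIAPP than in rIAPP (-1.58 ± 0.06, adjusted p 1.76e-05). Both of its exon-level probe sets had these signs, -1.17 and -0.71 in hIAPP and 0.62 and 0.89 in rIAPP.

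Beside Pcdhb12, those lower in hIAPP than in both other clones were Pcdhb4, Pcdhb14, Pcdhb15 and Pcdhb17. Pcdhb4 gave 8.72 and 8.60 in control, 7.52 and 7.82 in hIAPP and 8.58 and 8.71 in rIAPP, and differed by -0.99 ± 0.10 from control (adjusted p 0.000664) and by -0.97 from rIAPP. Pcdhb14 gave 10.45 and 10.40, 9.71 and 9.72, and 10.30 and 10.24 in the same order, with -0.71 from control and -0.56 from rIAPP (adjusted p 9.39e-05 and 0.000604). For both, hIAPP stood below the other arrays.
Pcdhb15 gave 8.82 and 8.76, 8.16 and 8.13, and 8.64 and 8.80, and differed by -0.64 and -0.57. Pcdhb17 gave 10.99 and 10.97, 10.15 and 10.24, and 10.57 and 10.65, differing by -0.78 from control and -0.42 from rIAPP, and it was also lower in rIAPP than control by 0.37 (adjusted p 0.00456). Thus for Pcdhb17 the rIAPP arrays lay between the others, whereas for Pcdhb15 they overlapped control. Pcdhb21 was lower in hIAPP than control by 0.23 (adjusted p 0.0164) and was not called against rIAPP.

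Lower in rIAPP, and called neither way in hIAPP against control, were Pcdhb2, Pcdhb3, Pcdhb19 and Pcdhb20. Pcdhb2 gave 11.04 and 11.09 in control, 11.17 and 11.07 in hIAPP and 10.47 and 10.53 in rIAPP, and fell by 0.56 in rIAPP (adjusted p 0.000695). Pcdhb19 gave 10.76 and 10.79, 10.78 and 10.85, and 10.26 and 10.24, and fell by 0.52 (adjusted p 0.000529). Pcdhb20 gave 8.74 and 8.75, 8.73 and 8.57, and 7.996 and 8.11, and fell by 0.69 (adjusted p 0.000692). For these the rIAPP arrays lay below all others, and hIAPP exceeded rIAPP by 0.62, 0.56 and 0.59. Pcdhb3 fell by 0.37 in rIAPP, with hIAPP 0.49 above rIAPP.

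Pcdhb5, Pcdhb6, Pcdhb7, Pcdhb9 and Pcdhb13 were lower in both clones than in control and not called between them. Pcdhb5 gave 10.24 and 10.30 in control, 9.66 and 9.71 in hIAPP and 9.65 and 9.70 in rIAPP, with -0.59 and -0.60 from control (adjusted p 0.000302 and 0.000366). Pcdhb7 gave 7.86 and 7.89, 7.13 and 7.42, and 7.04 and 6.94, with -0.60 and -0.88. Pcdhb9 gave 10.90 and 10.90, 10.30 and 10.37, and 9.94 and 10.22, with -0.57 and -0.82. In all of these control stood above the transgenic arrays.
Pcdhb13 gave 9.69 and 9.64, 9.01 and 9.12, and 9.14 and 9.15, with -0.60 and -0.52. Pcdhb6 gave 8.75 and 8.78, 7.92 and 7.74, and 7.74 and 8.29, with -0.93 ± 0.16 and -0.75 ± 0.16. Its rIAPP arrays were 0.55 apart, the widest gap of any member, and its rIAPP call (adjusted p 0.0182) was lost without control array a or without control array b (adjusted p 0.0778 and 0.0774). Pcdhb1, Pcdhb8, Pcdhb11 and Pcdhb22 were not called.

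Genes beside the beta cluster also differed in rIAPP. Of the 20 measured genes flanking it on chromosome 18, 9 were lower and none higher in rIAPP than in control, with a median of -0.20, and 9 were higher in hIAPP than in rIAPP, with a median of 0.24. In hIAPP against control 2 were higher and 1 lower, with a median of 0.01. Over all genes, 7.3% were called lower in rIAPP than in control and 6.11% higher in hIAPP than in rIAPP. The flanking genes' part in the rIAPP beta result was not tested. With the median of each gene's own 20 neighbours subtracted, a comparison chosen after seeing the data, the rIAPP differences from control were -0.14 for Pcdhb17, -0.30 for Pcdhb19, -0.36 for Pcdhb2 and -0.68 for Pcdhb7, and 1.01 for Pcdhb12. Those of hIAPP from rIAPP became -0.63 for Pcdhb17, 0.35 for Pcdhb19 and 0.38 for Pcdhb20.

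**Figure D3:**
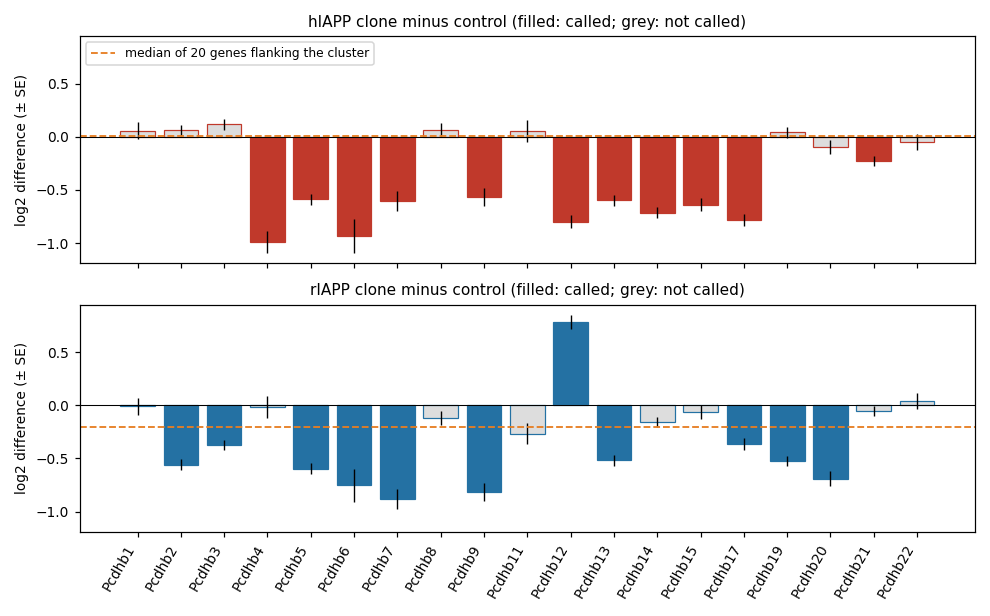
Log2 difference from control (y axis, ± SE) of 19 beta protocadherins (x axis, by gene number) in the hIAPP clone (upper) and the rIAPP clone (lower), filled where called and grey where not, with the median of 20 flanking genes (dashed). Runs of called genes alternate with uncalled ones, Pcdhb12 points in opposite directions, and the dashed line lies at 0.01 above and -0.20 below.

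Measurements shared by several clustered protocadherins were outside the fit and are given as values. The alpha-cluster measurement, which names 15 symbols, was 7.86 and 7.81 in control, 7.84 and 7.93 in hIAPP and 7.51 and 7.54 in rIAPP, a difference of 0.05 and -0.31. The gamma-cluster measurement, with 13 symbols, differed by -0.23 and -0.16. The measurement naming Pcdhb9 and Pcdhb10 differed by 0.00 and -0.57, whereas the one naming Pcdhb9 alone differed by -0.57 and -0.82, so these 2 differ in hIAPP. An exon-level probe set naming Pcdhb10 alone differed by 0.005 and -0.59, neither called, close to the shared measurement.

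At exon level 448 probe sets belonged to the 52 members. Against control, 23 (5.13%) were called in hIAPP and 33 (7.37%) in rIAPP, and 13 (2.9%) between the clones. Of all 166557 probe sets, 1.5%, 0.822% and 0.278% were called in the same comparisons. Probe sets of 1 gene are not separate members, and few genes gave most calls. In hIAPP, Cdh23 gave 11 of the 23 and Cdh6 gave 5. In rIAPP, Cdh2 gave 11 of the 33, Cdh7 gave 7, and Cdh6 and Cdh23 gave 5 each. Between the clones Cdh7 gave 7 of the 13. Cdh7 was positive in all 10 probe sets in rIAPP, from 1.02 to 3.57, with 7 called. Cdh2 was negative in all 15 in rIAPP, from -1.50 to -0.73, with 11 called. For both genes the sign was the same at every probe set. Cdh6 was positive in 10 of 11 in hIAPP and in 11 of 11 in rIAPP, with 5 called in each. Cdh11 was negative in 13 of 13 in each clone, with 1 called in hIAPP and 2 in rIAPP. Cdh23 was positive in 56 of 61 in hIAPP (11 called) and 54 of 61 in rIAPP (5 called). Pcdh7 was negative in 5 of 5 in rIAPP, with none called. With the median of a gene's probe sets in place of its gene-level value, 7 of the called differences of named members other than Pcdh9 kept their sign and were no longer called: Cdh2, Cdh7 and Pcdh7 in hIAPP, Cdh23, Pcdh7 and Pcdhb6 in rIAPP, and Pcdh20 between the transgenic clones (adjusted p 0.0518 to 0.149).

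**Figure D4:**
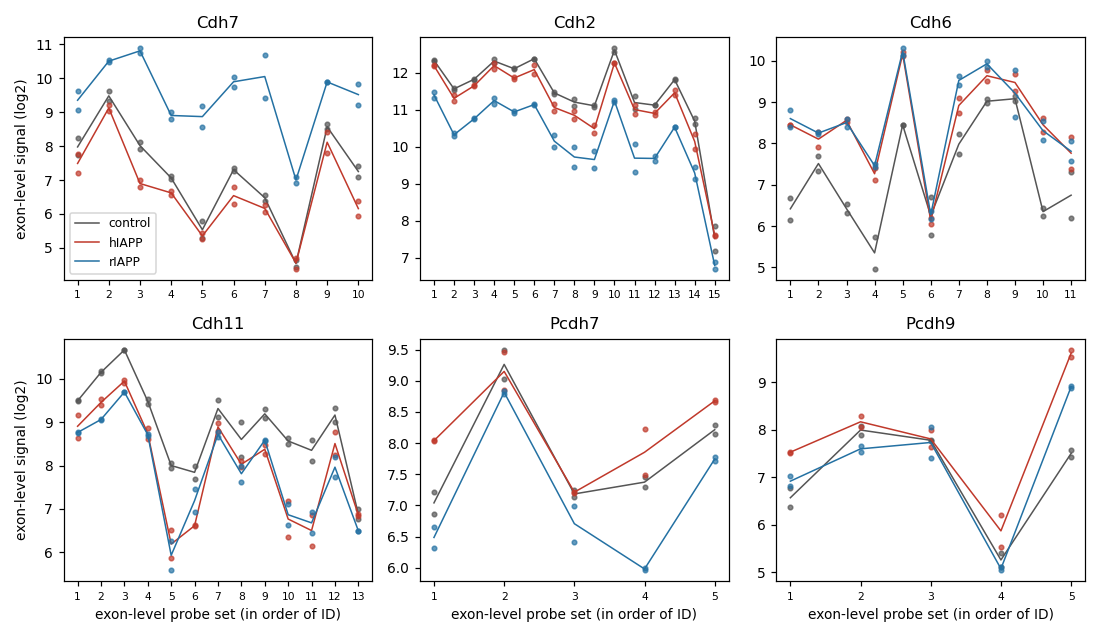
Exon-level log2 signal (y axis) of each probe set (x axis, in order of its ID) of 6 members, with 2 arrays per clone (points) and clone means (lines) for control (grey), hIAPP (red) and rIAPP (blue). Cdh7 is higher in rIAPP at all 10 probe sets and Cdh2 lower at all 15, whereas Pcdh9 is farthest from control at 1 of 5.

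The gamma cluster held contrasting isoforms at exon level, in symbols with no gene-level measurement of their own. Pcdhga7 had 2 probe sets. The first gave 11.46 and 11.34 in control, 10.35 and 10.32 in hIAPP and 11.22 and 11.20 in rIAPP, and the other 10.67 and 10.78, 9.19 and 9.28, and 10.59 and 10.49. Both were lower in hIAPP than control, by -1.07 and -1.49 (exon-level adjusted p 0.0207 and 0.0136), with hIAPP below all other arrays. The other 19 gamma probe sets with a single symbol were all negative in hIAPP, from -0.82 to -0.05, and none was called.

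Probe sets naming Pcdhgc3 and Pcdhga12 together mostly had the opposite sign in hIAPP. Of these 7, 6 were positive in hIAPP, up to 1.04, whereas in rIAPP they ranged from -0.44 to 0.21. The 2 probe sets shared by all 13 gamma symbols differed by -0.21 and 0.04 in hIAPP and by -0.49 and -0.53 in rIAPP. Probe sets with several symbols were not tested.

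**Figure D5:**
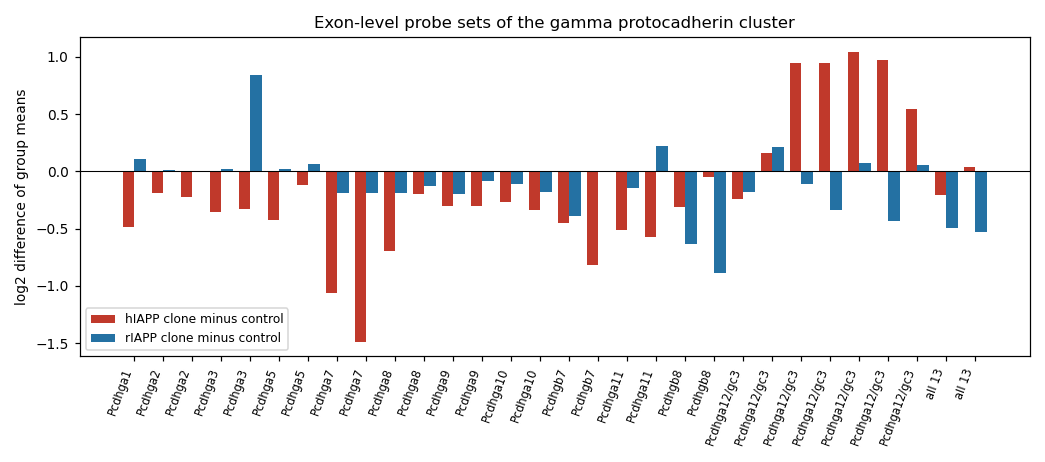
Log2 difference of clone means from control (y axis, means of 2 arrays, no error drawn) of exon-level probe sets of the gamma cluster (x axis, by symbol) in the hIAPP clone (red) and the rIAPP clone (blue). Pcdhga7 reaches -1.49 in hIAPP, whereas probe sets naming Pcdhga12 and Pcdhgc3 together reach 1.04.

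Genes that work with cadherins were taken from lists of known partners, fully counted. Of 18 measured catenins and linkers, 2 were higher and 1 lower in hIAPP, and 3 higher and 1 lower in rIAPP, than in control. These are 16.7% and 22.2% of the list, beside 19.1% and 16% of all genes. Jup, which encodes plakoglobin, a catenin of junctions and desmosomes, rose by 0.54 in hIAPP (adjusted p 0.000962) and fell by 0.24 in rIAPP (adjusted p 0.0359). Nectin3, an immunoglobulin-type adhesion protein of the same junctions, rose by 0.47 and 0.74. Vcl, encoding vinculin, which links junctions to actin, rose by 0.33 in rIAPP, as did Ctnnd2, a delta-catenin, by 0.23. Arvcf, another catenin of the p120 group, fell by 0.27 in hIAPP. Between the transgenic clones 2 of the 18 were higher and 3 lower in hIAPP, 27.8% of the list beside 11.7% of all genes. Jup stood at 0.78, Vcl at -0.32, Ctnnd2 at -0.28 and Nectin3 at -0.27.

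Of 10 cadherin-cleaving enzymes, 1 was called, Aph1a of gamma-secretase, higher in hIAPP by 0.24 (adjusted p 0.046), 10% of the list, under the share of all genes. Of 8 cadherin repressors, 1 was lower in hIAPP, and 1 was higher and 2 lower in rIAPP. These are 12.5% and 37.5% of the list, beside 19.1% and 16% of all genes. Zeb1, a repressor of Cdh1 in carcinoma cells, fell by 0.30 in hIAPP and rose by 0.27 in rIAPP (adjusted p 0.0132 and 0.0217). Twist2 and Tcf4 fell by 0.40 and 0.28 in rIAPP, from low control signals of 5.86 and 6.60. Zeb1 was the 1 repressor called between the transgenic clones, at -0.57 in hIAPP minus rIAPP (adjusted p 0.00122). That is 12.5% of the list, beside 11.7% of all genes.

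Of 20 other cadherin superfamily genes, 7 were higher and 3 lower in hIAPP and 4 higher and 2 lower in rIAPP, 50% and 30% of the list beside 19.1% and 16% of all genes. Ret, a receptor kinase with cadherin-like repeats, rose by 1.07 and 1.14. Fat4, a giant cadherin of planar polarity, rose by 1.27 and 0.45, and Clstn2, a calsyntenin, by 0.58 and 0.55. Cdhr1, of photoreceptors, fell by 0.74 in hIAPP, and Clstn3 fell by 0.28 in rIAPP. Between the transgenic clones 3 were higher and 2 lower in hIAPP, 25% of the list beside 11.7% of all genes. Cdhr1 stood at -0.91, Fat4 at 0.82, the desmosomal Dsg1 at 0.35 and Clstn1 at -0.27. Of 10 factors that act at the protocadherin locus, such as CTCF and cohesin, 1 was called, Wapl, a cohesin release factor. It was higher in hIAPP than in control by 0.35 (adjusted p 0.00258) and than in rIAPP by 0.20. In these comparisons that is 10% of the list, beside 19.1% and 11.7% of all genes.

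The 22 members called in no comparison ranged from -0.21 to 0.10 in hIAPP and from -0.27 to 0.11 in rIAPP against control. The share of all genes called in no comparison was not computed.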

How the data were processed

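The authors deposited log2 values at gene level (36685 measurements) and exon level (220231 probe sets) from the same 6 arrays, 2 per clone, made with Affymetrix Expression Console and RMA, per the submitters' processing notes, which give no versions. These log2 values were used as deposited. GEO's platform annotation gave 1 symbol for 18511 gene-level measurements, several for 575 and none for 17599. The brightest per symbol was kept, leaving 18166 genes. Older exon-level symbols were updated through RefSeq synonyms. RefSeq's GRCr8 table served for names, neighbours and promoters only, since the sources used here do not state the array's build.

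Group means were fitted with limma 3.58.1 (lmFit, eBayes) in R 4.3.3 to all 6 arrays, with 3 contrasts and Benjamini-Hochberg adjustment over all genes, and likewise over 166557 exon-level probe sets. The fit was tested on simulated data. Figures used matplotlib 3.10.9. The number of arrays limits the precision. Members and lists were chosen with earlier results of these data known. Array values are given for Cdh1, Cdh2, Cdh7, Pcdhb12 and members called with a difference of at least 0.5. Other called members are named with their difference, and from each list of cadherin partners up to 4 called genes per contrast by size. No shift shared by the letters a and b was seen across genes. Between clones, the a minus b deviations correlated at -0.04, 0.0006 and 0.0004. These values cannot tell whether the samples were paired by culture or day. Alternatives were other variance priors, bright genes only, means of all measurements of a symbol, exon-level medians, median centring, a replicate block, each array left out, adjusted p under 0.01 and the clustered genes left out.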

Additional observations from a re-analysis of the deposited data

How the results depend on the processing

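Counts of called members stayed within 1.5 times the reported ones under both other variance priors, median centring, an adjusted p under 0.01 and the replicate block. Means of all measurements of a symbol could not change member values, since each of the 52 members had 1 measurement. That setting is therefore no check of them. With the replicate block 7 were higher and 15 lower in hIAPP than control, 5 and 15 in rIAPP, and 11 and 7 in hIAPP against rIAPP. Keeping only genes at or above the median left 22 members tested. Of these, 2 were higher and 13 lower in hIAPP than control, and 2 and 11 in rIAPP. Of all 9083 genes tested there, 3695 and 3530 were called. With exon-level medians 5 were higher and 11 lower in hIAPP than control, and 3 and 10 in rIAPP. Between the transgenic clones 7 were higher and 6 lower in hIAPP. Of all 16739 genes tested there, 1338, 950 and 529 were called in the 3 comparisons. Without the clustered protocadherins 5 were lower in hIAPP, 5 lower in rIAPP, and 7 higher and 2 lower in hIAPP than rIAPP. Leaving out 1 array gave 7 to 8 higher and 12 to 15 lower in hIAPP, 5 to 6 and 12 to 15 in rIAPP, and 10 to 12 and, in each case, 7 between the clones. Of 48 named differences called, 10 were lost under at least 1 planned setting and 38 were kept under each that tested them. However, 20 of the 48 were not tested among genes at or above the median only. For the 13 beta members with 1 exon-level probe set, exon-level medians equal the gene-level values. Only the error estimate and the adjustment could change their calls there. Pcdh9 in rIAPP reversed with exon-level medians, to -0.032 (adjusted p 0.922). Subtracting the median of 20 neighbouring genes, chosen after seeing the data, moved 21 of 47 named differences by more than the SD between arrays and 7 by over 1.5 times, with no change of sign.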
